A study of Homo sapiens with 9 samples.

Results

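The genes described here are 10 controllers of the G1 phase of the cell cycle in the cell line DOHH2, which was established from a human transformed follicular lymphoma. They were taken as a list of symbols, CCND2, CCND3, CDK4, CDK6, RB1, CDKN1B, CDKN1C, CDKN2A, CDKN2C and CDKN2D, and each symbol matched 1 of the 58243 Ensembl gene identifiers counted. Of the 10 members, 7 had enough reads to be among the 15163 genes tested, and CCND2, CDKN1C and CDKN2A did not. RNA-seq was made from 9 libraries in 3 groups of 3. The femur groups, day 19 and day 40, held DOHH2 cells sorted by human CD20 out of femurs of RAGγc mice that carried a DOHH2 graft. These mice are immunodeficient and accept human cells. The day 0 group held DOHH2 cells from culture. All groups share the same cell line, but whether the femur cells kept the genome of the cultured cells was not tested. Only the femur cells went through bone digestion, bead depletion of mouse blood cells and sorting. In each comparison with day 0, growth in the femur and this handling cannot be told apart. The age and sex of the mice, the number of mice behind a library and the cultures are not given in the labels.

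Cells pass from G1 into DNA replication when cyclin D bound to CDK4 or CDK6, and then cyclin E bound to CDK2, phosphorylate the retinoblastoma protein RB1 and release E2F transcription factors. INK4 inhibitors (p16 from CDKN2A, p18 from CDKN2C, p19 from CDKN2D) bind CDK4 and CDK6 and keep them from cyclin D, whereas CIP/KIP inhibitors (p21 from CDKN1A, p27 from CDKN1B, p57 from CDKN1C) bind complexes of cyclins and CDKs. In mice, germinal-centre B cells depend on cyclin D3. Much of the control of p27 and of the cyclins acts on the protein, which was not measured here.

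Libraries held between 21071239 and 29456271 counts, and the log2 CPM of libraries of a group correlated at 0.987 to 0.993. All levels are CPM, that is, counts relative to the library size, which was scaled by TMM, a method that aligns libraries on genes of similar level. Of 6 B-cell markers none was at 0, and their summed level was 2276 to 2488 CPM at day 19, 2691 to 2905 CPM at day 40 and 3503 to 4459 CPM in culture. The 8 stromal and osteolineage markers summed to 4.97 to 7.54 CPM at day 19, 4.38 to 5.29 CPM at day 40 and 0.698 to 1.36 CPM in culture, most of it PDGFRB in the femur, and 4 of the 8, among them COL1A2 and COL3A1, were at 0 in every library. The 6 T and NK cell markers summed to 6.94 to 8.29 CPM at day 19, 15.8 to 18.4 CPM at day 40 and 22.6 to 29.9 CPM in culture. The 5 plasma cell markers summed to 530.0 to 617 CPM, 681 to 781.5 CPM and 1081 to 1520 CPM in these groups. Most of this was JCHAIN, which averaged lower on both femur days than in culture, as did XBP1 and TNFRSF17. SDC1 and PRDM1 averaged higher on both days, but at few counts. SDC1 had 32 counts at day 19, 27 at day 40 and 0 in culture, and PRDM1 had 36, 79 and 15. The 5 endothelial markers summed to 1.61 to 3.12 CPM at day 19, 3.28 to 4.24 CPM at day 40 and 4.42 to 7.60 CPM in culture. Nearly all of this sum was PECAM1, and CDH5, KDR and TEK were at 0 in every library. Of 5 erythroid markers 3 and of 6 myeloid markers 3 were at 0 throughout, and the part of any of these marker differences in the results was not tested. Mitochondrially encoded genes took 7.54% to 8.67% of counts at day 19, 7.83% to 8.51% at day 40 and 4.83% to 6.07% in culture, and the part of this difference in the results was not tested. The titles end in a number that was read here as a date. Each library was placed in the sampling period of the latest culture library by that date, a grouping that the labels do not give. On this reading, 2 of the day 40 libraries (replicates 1 and 2) date from 11 and 26 days after the culture library of their period. A graft 40 days earlier would then precede that culture library.

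In the femur, the transcript of p27 (CDKN1B) was 2.29-fold higher than in culture at day 19 and 1.74-fold higher at day 40. That of p18 (CDKN2C) was lower on both days, and RB1 overlapped between all groups. At day 19, 1 of the 7 tested members was called higher than in culture (CDKN1B) and 1 lower (CDKN2C) by edgeR's quasi-likelihood test at an adjusted p under 0.05, where 26.3% of all tested genes were called higher and 26.5% lower (52.8% in all). At day 40, CDKN1B was again called higher and 3 members were called lower (CDKN2C, CCND3 and CDK4), against a background of 23.3% higher and 23.3% lower (46.6% in all). Between the femur groups, CCND3 was lower at day 40 and none was called higher, where 4.68% of genes were called, 3.23% higher and 1.45% lower. Libraries did not overlap for 3 of the 7 members at day 19 against culture, 4 at day 40 against culture and 3 between the femur days, where this held for 61.5%, 54.8% and 26.6% of all genes. The median log2 fold change of the 7 members was -0.11 at day 19 and -0.06 at day 40, beside 0.01 over all genes on both days. With 2 of 7 members called at day 19 and 4 of 7 at day 40 beside such backgrounds, the counts set the members apart from other genes on neither day. When libraries were scaled by their totals alone, 4155 genes were called higher and 2650 lower at day 40, against 3527 and 3538 with TMM. Bulk RNA cannot tell fewer cells with a transcript from less of it per cell.

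**Figure D1:**
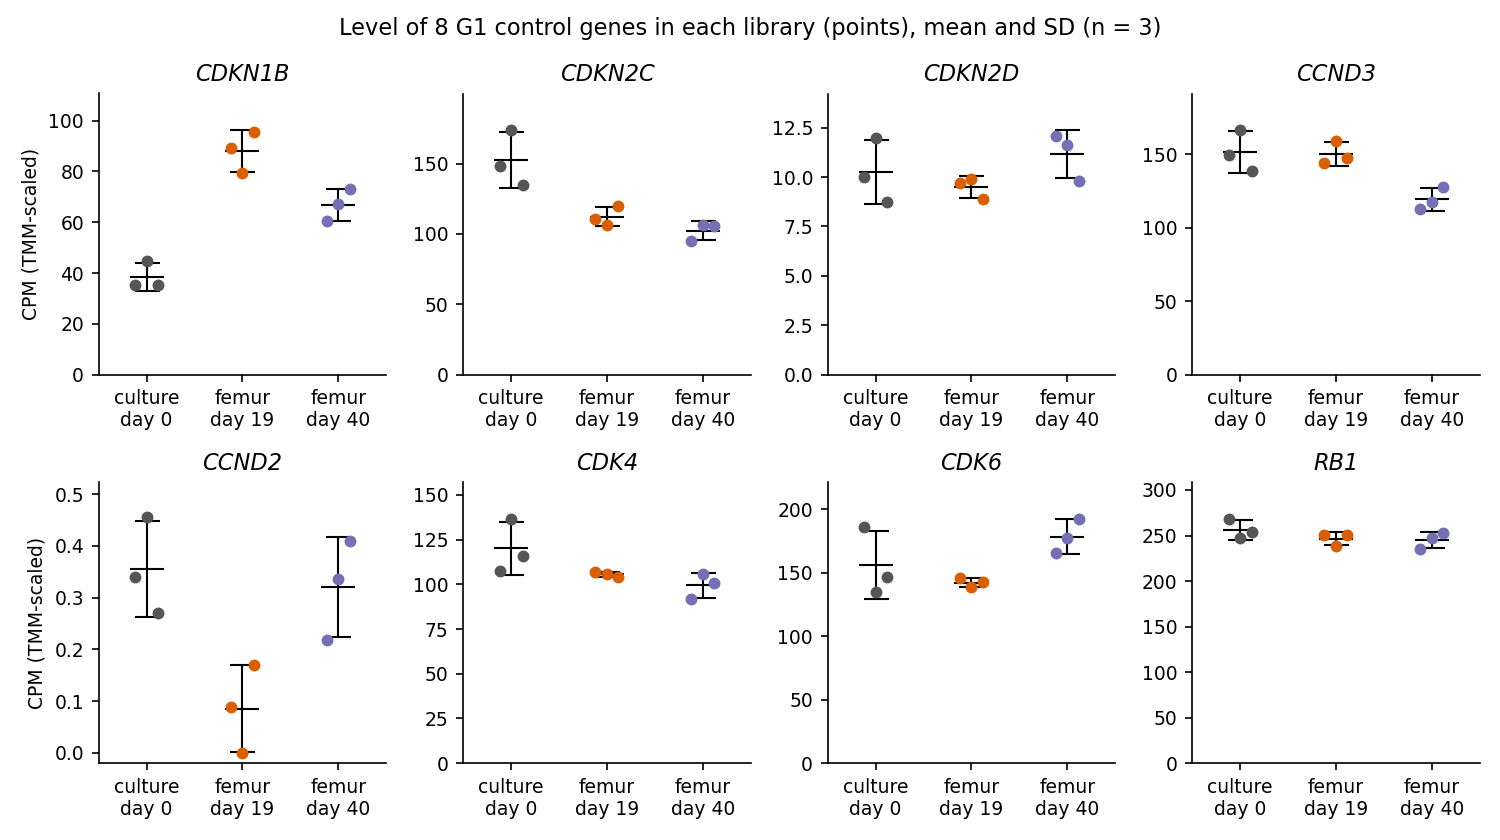
Level of 8 members in each library, in CPM on linear axes that reach 0. Points are the 3 libraries of culture day 0, femur day 19 and femur day 40, with the mean and SD as bars. CDKN1B lay above all culture libraries on both femur days, CDKN2C lay below them, and CCND3 was lower at day 40 alone.

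CDKN1B encodes p27Kip1, an inhibitor of cyclin E and CDK2 that also associates with cyclin D complexes. Its gene lies on chromosome 12 from 12715058 to 12722371 on the plus strand (hg38, GENCODE 29), with a small intronic noncoding gene inside it that shares no exon bases. It had 35.1, 44.9 and 35.2 CPM in the culture libraries, 89.3, 79.2 and 95.5 CPM at day 19, and 60.5, 67.0 and 73.1 CPM at day 40. Each femur library was above each culture library, and each day 40 library was below each day 19 library. At day 19 it averaged 87.97 ± 8.23 CPM, against 38.4 ± 5.64 CPM in culture (SD, n = 3 each), a 2.29-fold rise (log2 fold change 1.20, SE 0.11, adjusted p = 2.48e-06). At day 40 it averaged 66.9 ± 6.28 CPM and was 1.74-fold higher than in culture (log2 fold change 0.80, SE 0.11, adjusted p = 1.02e-04). Within the 3 sampling periods the log2 difference from culture was 1.35, 0.82 and 1.44 at day 19 and 0.79, 0.58 and 1.06 at day 40. The step between the femur days, a log2 fold change of -0.40 (SE 0.11) for day 40 against day 19, just missed the threshold (adjusted p = 0.0538) and passed it in 7 of 17 alternative fits.

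The stretch before the transcription start of CDKN1B is shown because this gene moved most. Windows of 250 bases before to 50 bases after the start were available from RefSeq (GRCh38.p14) for 8 of the 10 members, in 14 windows. All were searched on both strands for the E-box CACGTG, the GC box GGGCGG, the CCAAT box CCAAT, the forkhead motif TGTTTAC and the E2F-type motif GGCGGGAA. The CDKN1B window held 1 GC box and 3 CCAAT boxes and no E-box, forkhead or E2F-type motif in these letters. Of all 35116 windows, 45.0% held a GC box, 34.6% a CCAAT box, 7.26% an E-box, 3.42% a forkhead motif and 3.16% an E2F-type motif. The stretch of CDKN1B with the GC box and the middle CCAAT box, both in capitals (chr12:12717295-12717324, plus strand), reads
CDKN1B: cgGGGCGGctcccgccgccgcaaCCAATgg
GENCODE 29 also annotates an exon of CDKN1B across this window, so only 30 bases are given, and a match describes letters and not a bound site.

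CDKN2C encodes p18INK4c, an INK4 inhibitor of CDK4 and CDK6 that in mice takes part in plasma cell formation. It lies on chromosome 1 from 50960745 to 50974633 on the plus strand and overlaps no other annotated gene. It had 149, 174 and 135 CPM in culture, 111, 106 and 119.6 CPM at day 19, and 94.8, 107 and 106 CPM at day 40. Every femur library was below every culture library, while the femur days overlapped each other. At day 19 it averaged 112 ± 6.73 CPM, against 152 ± 19.8 CPM in culture (SD, n = 3 each; log2 fold change -0.44, SE 0.09, adjusted p = 0.00147). At day 40 it averaged 102 ± 6.62 CPM (log2 fold change -0.57, SE 0.09, adjusted p = 3.23e-04), so that it fell by 32.7% relative to culture. Within the 3 sampling periods the log2 difference from culture was -0.43, -0.71 and -0.17 at day 19 and -0.65, -0.71 and -0.35 at day 40. Since no femur library overlapped culture, the direction of these differences was fixed and only their size is informative. Day 40 and day 19 were not called different (log2 fold change -0.13, SE 0.09, adjusted p = 0.545).

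CDKN2C had windows at 3 starts. The middle window held an E2F-type motif and 6 GC boxes, and its stretch with the E2F-type motif and the next GC box in capitals (chr1:50968574-50968603, plus strand), inside an annotated CDKN2C exon, reads
CDKN2C: GGCGGGAAtgagggcgcgggaccGGGCGGg
The other windows held an E-box each, and 1 of them also a GC box and a CCAAT box. Among the 14 windows the E2F-type motif occurred in that CDKN2C window alone, and the forkhead motif in a window of CCND3 alone. The 1 window of RB1 (chr13:48476200-48476499) lies inside the gene and not at its annotated start, so the motifs there say nothing of the main start of RB1.

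CDKN2D, the gene of p19INK4d, lies on chromosome 19 from 10566462 to 10569059 and was the weakest of the tested members. It had 10.01, 11.98 and 8.76 CPM in culture, 9.67, 9.92 and 8.88 CPM at day 19, and 12.1, 11.6 and 9.79 CPM at day 40. The groups overlapped in every comparison. The log2 fold changes were -0.11 (SE 0.14, adjusted p = 0.532) at day 19 and 0.13 (SE 0.14, adjusted p = 0.473) at day 40 against culture, and 0.24 (SE 0.14, adjusted p = 0.451) for day 40 against day 19.

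Among the 3 tested inhibitors of the 10 genes, the share of CDKN1B was higher in every femur library than in every culture library. The scale of CPM per kb of merged exons adjusts for annotated length, which can exceed that of the transcripts in use. On it, CDKN1B made up 43.8% ± 1.41 of the sum of CDKN1B, CDKN2C and CDKN2D at day 19. Its share was 38.3% ± 1.82 at day 40, against 20.6% ± 0.910 in culture (SD, n = 3). CDKN2C made up 47.4% ± 0.695 at day 19 and 49.7% ± 0.663 at day 40, against 69.2% ± 0.761 in culture. The ratio of CDKN1B to CDKN2C was 0.925 ± 0.0402 at day 19 and 0.770 ± 0.0392 at day 40, against 0.297 ± 0.0162 in culture. The sum of the 3 genes, which leaves out CDKN1A, was 71.4 ± 4.54 CPM per kb at day 19 and 62.1 ± 3.44 CPM per kb at day 40, against 66.4 ± 8.96 CPM per kb in culture. These shares describe the levels given above and were not tested.

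**Figure D2:**
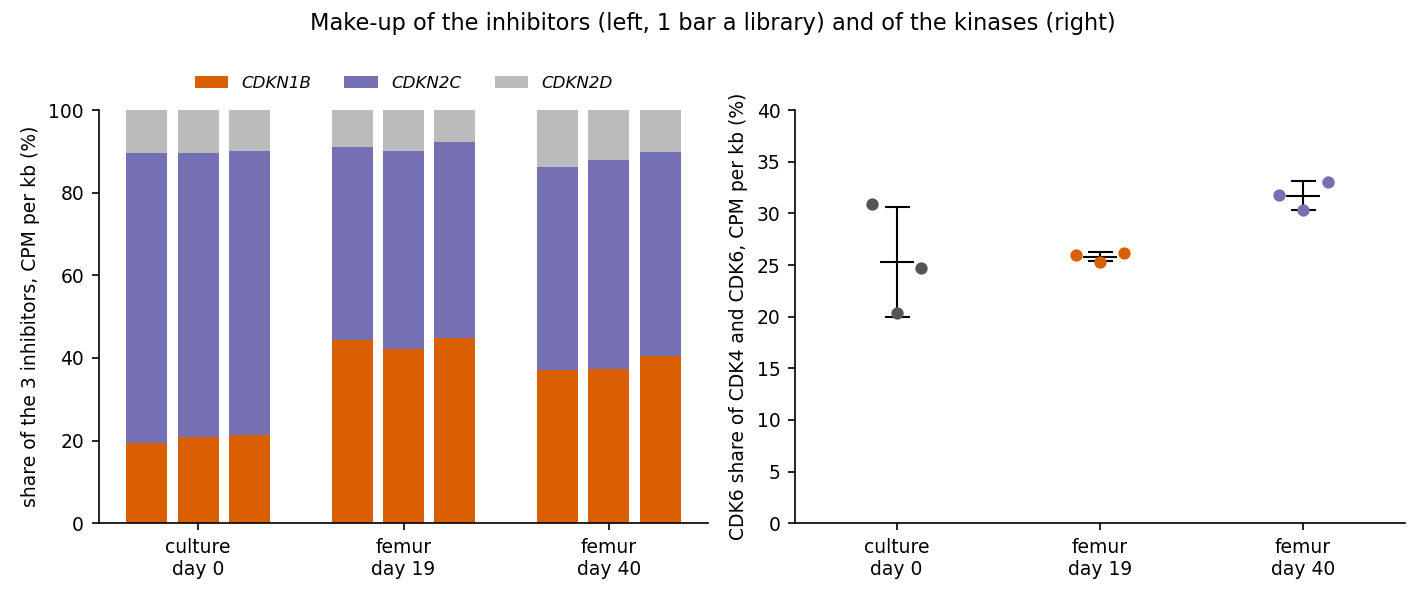
Left, share of CDKN1B, CDKN2C and CDKN2D in their sum on the scale of CPM per kb, with 1 bar per library and the groups in the order culture day 0, femur day 19 and femur day 40. Right, share of CDK6 in the sum of CDK4 and CDK6, as points per library with mean and SD. CDKN1B took 42.1% to 44.7% in the day 19 libraries and 37.1% to 40.4% in the day 40 libraries, against 19.5% to 21.2% in culture.

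CDKN1A, the gene of p21 and a CIP/KIP inhibitor like CDKN1B, was lower in the femur. It averaged 14.8 ± 2.32 CPM at day 19, against 59.9 ± 3.54 CPM in culture (SD, n = 3 each; log2 fold change -2.01, SE 0.16, adjusted p = 5.87e-07). At day 40 it averaged 28.4 ± 6.91 CPM and was also lower than in culture (log2 fold change -1.07, SE 0.15, adjusted p = 1.12e-04). Between the femur days it was higher at day 40 (log2 fold change 0.94, SE 0.16, adjusted p = 0.00448), where CDKN1B had its value of -0.40.

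CDKN1C, the gene of p57Kip2 and an imprinted gene on chromosome 11 from 2883213 to 2885773, was at the limit of detection. It had 2 counts in day 40 replicate 1 and 0 counts in the other 8 libraries. A count of 0 allows up to 3 counts, or 0.102 CPM in the deepest library and 0.142 CPM in the shallowest, and no difference was detectable at this depth. Intervals and floors cover counting error only.

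CDKN2A, which encodes p16INK4a and, from another reading frame, the p53 activator p14ARF, had 0 counts in all 9 libraries. Over 9 libraries this allows at most 3 counts, or 0.0136 CPM. The gene lies on chromosome 9 from 21967753 to 21995301 on the minus strand and shares 341 exon bases with the antisense RNA CDKN2B-AS1, which was also at 0. On a list of 9 neighbouring genes, CDKN2B, the gene of p15INK4b, ELAVL2 and IFNE were at 0 as well, and DMRTA1 had 1 count. MTAP, a methionine salvage enzyme gene transcribed in most human tissues, had 1 count in 9 libraries. The protein-coding gene AL359922.1 overlaps MTAP on the same strand and had 0 counts. Whether reads that fit both genes were left uncounted is not known.

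The nearest genes with enough reads to be tested were KLHL9, which ends at 21335380 and had 7492 counts, and CAAP1, which starts at 26840685 and had 8093 counts. Between them lie 5.51 Mb with 57 genes counted in the files, 14 of them protein-coding. These 57 genes held 8 counts in all, and 53 of them, including 11 protein-coding ones, were at 0 in every library. The pseudogene KHSRPP1 had 5 of the 8 counts, and IFNA1, MTAP and DMRTA1 had 1 each. Interferon genes and other genes with narrow tissue expression lie in this stretch too, so that a count of 0 is usual for some of them. The stretch was chosen after the values were seen, the same low values held in culture and in both femur groups, and why they are low was not tested. Farther out, FOCAD averaged 28.5 ± 2.64 CPM at day 19 and 28.1 ± 2.04 CPM at day 40, against 35.01 ± 0.187 CPM in culture (adjusted p = 0.0116 and 0.00952 for the comparisons of day 19 and day 40 with culture).

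**Figure D3:**
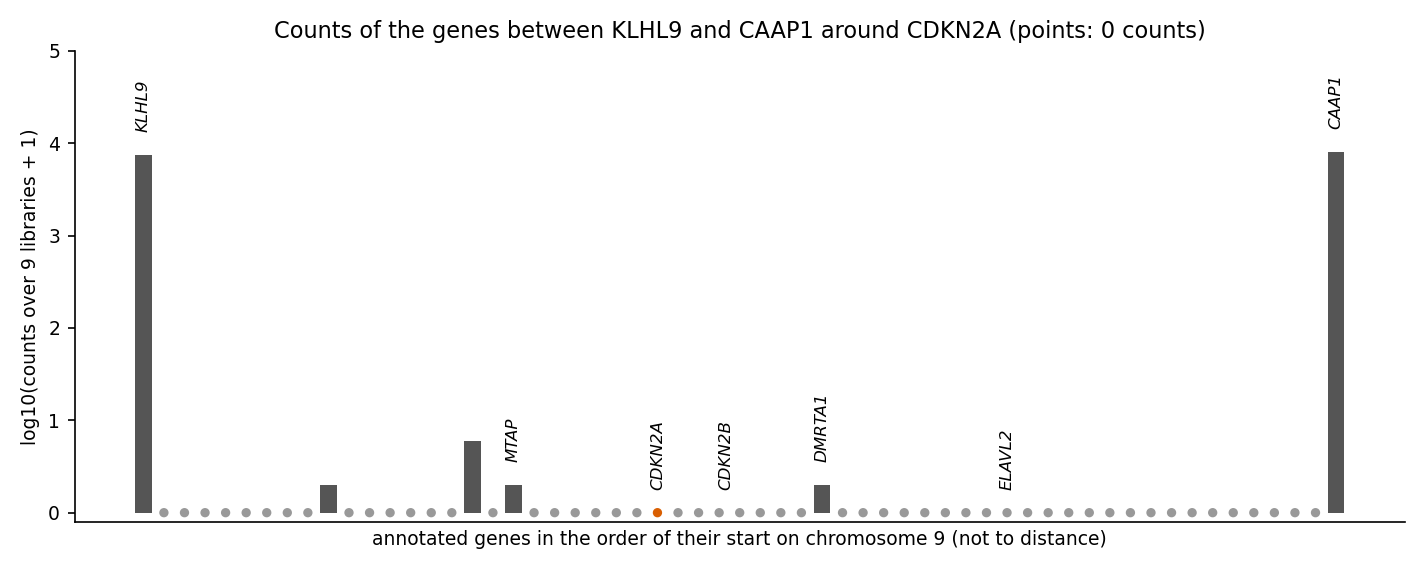
Counts summed over the 9 libraries, as log10 of the count plus 1, for the genes from KLHL9 to CAAP1 in the order of their start on chromosome 9. Points on the axis are genes with 0 counts, and CDKN2A is in orange. The flanking genes had 7492 and 8093 counts, and the 57 genes between them had 8 in all.

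Among the D cyclins, CCND3 held nearly all of the transcript. On the scale of CPM per kb it made up 99.8% ± 0.0981 of the sum of CCND1, CCND2 and CCND3 at day 19 and 99.7% ± 0.0845 at day 40, against 99.8% ± 0.0479 in culture (SD, n = 3). CCND3 lies on chromosome 6 from 41934933 to 42050357 on the minus strand and shares 24 exon bases with an antisense noncoding gene that had 0 counts. It had 149, 166 and 138 CPM in culture, 144, 159 and 147 CPM at day 19, and 113, 118 and 128 CPM at day 40. Culture and day 19 overlapped, and every day 40 library was below every other library.

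At day 40 CCND3 averaged 119.5 ± 7.83 CPM, against 151 ± 14.1 CPM in culture (SD, n = 3 each). It fell by 21.1% (log2 fold change -0.34, SE 0.08, adjusted p = 0.00382). Against day 19, with 150.2 ± 7.94 CPM, its log2 fold change at day 40 was -0.33 (SE 0.08, adjusted p = 0.0326). Day 19 and culture were not called different (log2 fold change -0.01, SE 0.08, adjusted p = 0.916). Within the 3 periods the log2 differences of day 40 were -0.41, -0.50 and -0.11 from culture and -0.35, -0.44 and -0.20 from day 19. As every day 40 library was below every other library, the direction of these differences was fixed. The call against day 19 was lost when any day 19 library, day 40 replicate 1 or day 40 replicate 2 was left out (adjusted p = 0.0648 to 0.168). Without both day 40 replicates 1 and 2, the call against culture was lost too (log2 fold change -0.25, adjusted p = 0.141).

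CCND3 had windows at 3 starts. The middle one held 4 GC boxes and 1 CCAAT box, and its part outside annotated exons (chr6:41941849-41942058, minus strand), with the motifs in capitals, reads
CCND3: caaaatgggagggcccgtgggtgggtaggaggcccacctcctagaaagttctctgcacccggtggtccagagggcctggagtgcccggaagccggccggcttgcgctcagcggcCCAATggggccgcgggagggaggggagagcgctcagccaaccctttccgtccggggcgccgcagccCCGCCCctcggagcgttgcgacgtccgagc
The first window, far upstream, held 5 GC boxes and a forkhead motif, and the last held a CCAAT box.

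CCND2, the D cyclin that B-cell receptor signals induce in mature mouse B cells, was near the limit of detection. Its gene lies on chromosome 12 from 4273772 to 4305350 on the plus strand. It had 8, 10 and 7 counts in the culture libraries, 2, 0 and 4 at day 19, and 6, 10 and 10 at day 40. The day 19 libraries were below all others, while culture and day 40 overlapped. The summed counts were 6 at day 19 against 25 in culture, a depth-scaled ratio of 0.252 (95% interval for counting error 0.0846 to 0.630). They were 26 at day 40, a ratio to culture of 0.906 (0.503 to 1.64). An exact two-sided permutation test over the libraries gave p = 0.1 for day 19 against culture, the smallest that 3 against 3 libraries allow, and p = 0.7 for day 40. With no low-count filter, CCND2 was called lower at day 19 (log2 fold change -1.97, adjusted p = 0.0218). It also had enough reads to be tested when a day 19 library was left out, and was called without replicate 3 (-2.83, adjusted p = 0.0176) but not without replicate 1 (-1.94, adjusted p = 0.0680) or replicate 2 (-1.41, adjusted p = 0.0751). CCND1, the D cyclin of most other tissues, had 9 counts at day 19, 8 at day 40 and 4 in culture.

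**Figure D4:**
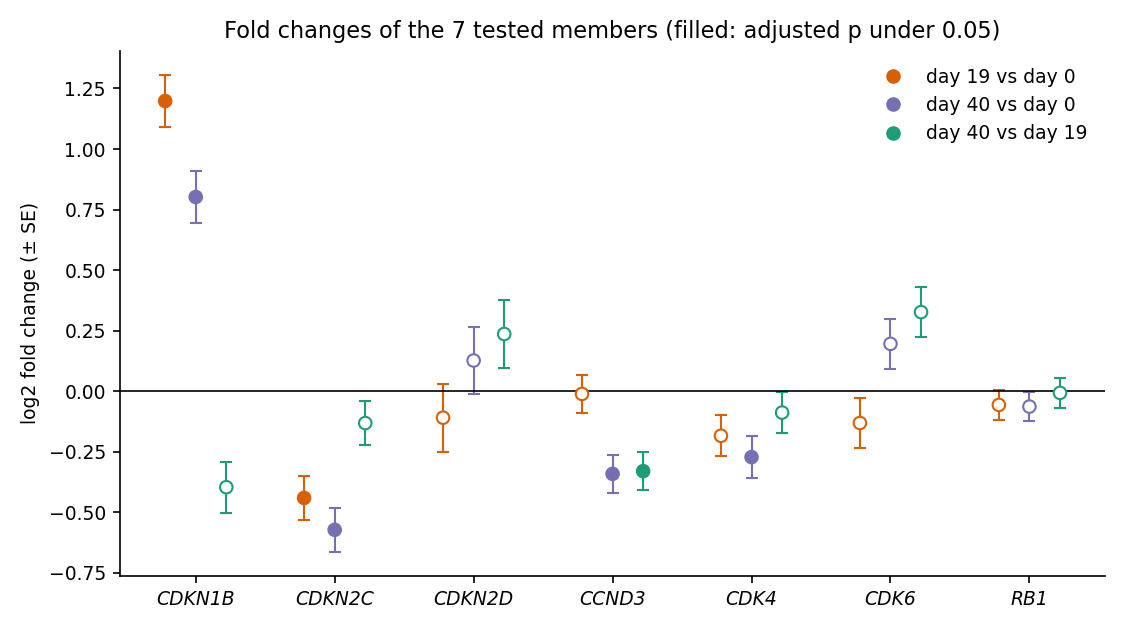
Log2 fold changes of the 7 tested members, with bars of 1 SE, for each femur group against culture and for the femur groups against each other (legend). Filled points have an adjusted p under 0.05 over all genes. CDKN1B stands at 1.20 and 0.80 against culture, and the other values lie between -0.57 and 0.33.

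CDK4 and CDK6 are the kinases that D cyclins activate. CDK4 lies on chromosome 12 from 57747727 to 57756013 on the minus strand and shares 1369 exon bases with TSPAN31 on the opposite strand. TSPAN31 had 2184 counts over the 9 libraries, and without a stated strand setting the reads of such genes cannot be told apart. CDK4 had 108, 137 and 116 CPM in culture, 107, 106 and 104 CPM at day 19, and 91.7, 106 and 101 CPM at day 40. Both femur groups lay below culture, but the lowest culture library was less than 1 CPM above the highest at day 19.

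At day 40 CDK4 averaged 99.4 ± 7.07 CPM, against 120.1 ± 14.9 CPM in culture (SD, n = 3 each). It fell by 17.2% (log2 fold change -0.27, SE 0.09, adjusted p = 0.0203). That call was lost with total library size as the scaling (log2 fold change -0.19, adjusted p = 0.0613) and without day 40 replicate 1 (-0.23, adjusted p = 0.0739). It was also lost, at nearly the same log2 fold change, in a fit of these groups alone (-0.26, adjusted p = 0.0572) and without day 40 replicates 1 and 2 (-0.26, adjusted p = 0.150). At day 19 CDK4 averaged 105.7 ± 1.45 CPM (log2 fold change -0.18, SE 0.09, adjusted p = 0.0879 against culture). Its window held 3 E-boxes, the letters that MYC and MAX bind, and 3 GC boxes. The E-boxes farthest from the start, in capitals and inside an annotated CDK4 exon (chr12:57752499-57752528, minus strand), read
CDK4: gtCACGTGtgatagcaacagatCACGTGgc
Of the other members with a window, CDKN2C and CDK6 held an E-box.

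CDK6, which lies on chromosome 7 from 92604921 to 92836594 on the minus strand, had 186, 135 and 147 CPM in culture, 146, 139 and 143 CPM at day 19, and 165, 178 and 193 CPM at day 40. The culture libraries overlapped with both femur groups, and culture replicate 1 stood above the other culture libraries. Day 40 lay above day 19 in every library, with a log2 fold change of 0.33 (SE 0.10) that did not pass the threshold (adjusted p = 0.105). It passed in 4 of 17 alternative fits, namely without a low-count filter (adjusted p = 0.00157), with these groups alone (0.00938), without culture replicate 1 (0.0245) and without culture replicate 2 (0.0310). Against culture the log2 fold changes were -0.13 (SE 0.10, adjusted p = 0.302) at day 19 and 0.20 (SE 0.10, adjusted p = 0.136) at day 40. Without culture replicate 1 the day 40 value was 0.34 and was called (adjusted p = 0.00558). CDK6 made up 25.8% ± 0.432 of the sum of CDK4 and CDK6 per kb at day 19 and 31.7% ± 1.38 at day 40, against 25.3% ± 5.30 in culture.

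RB1, the substrate of these kinases, lies on chromosome 13 from 48303726 to 48599436 on the plus strand and shares no exon bases with the genes that overlap it. It had 268, 247 and 254 CPM in culture, 251, 238 and 250.2 CPM at day 19, and 236, 247 and 253 CPM at day 40. The groups overlapped in every comparison. Its log2 fold changes were -0.06 (SE 0.06, adjusted p = 0.453) at day 19 and -0.06 (SE 0.06, adjusted p = 0.411) at day 40 against culture, and -0.01 (SE 0.06, adjusted p = 0.973) between the femur days. It had the smallest SE of the tested members.

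Per kb of merged exons, the order of levels in culture ran from CDKN2C at 45.9 ± 5.98 CPM per kb through RB1 at 39.7 ± 1.71, CDK4 at 37.9 ± 4.72, CCND3 at 26.1 ± 2.43, CDKN1B at 13.7 ± 2.01 and CDK6 at 12.7 ± 2.18 to CDKN2D at 6.82 ± 1.08 (SD, n = 3). Neighbours from CDKN2C to CDK4, and CDKN1B and CDK6, lay within the sum of their SDs. At day 19 CDKN1B stood at 31.3 ± 2.93 CPM per kb, near CDKN2C at 33.8 ± 2.03 and CDK4 at 33.4 ± 0.459 and above CCND3 at 25.9 ± 1.37. At day 40 it stood at 23.8 ± 2.23 CPM per kb, above CCND3 at 20.6 ± 1.35 and below CDKN2C at 30.9 ± 2.00. RB1 was the highest of the 10 per kb at day 19 and day 40, at 38.2 ± 1.08 and 38.0 ± 1.36 CPM per kb. This order depends on the merged lengths, and CDK4 shares 1369 exon bases with TSPAN31, whose reads cannot be told apart from its own.

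Other genes of the pathway were called in both directions. The list counts stand beside shares among all genes of 26.3% higher and 26.5% lower at day 19 and of 23.3% each way at day 40, and nothing particular to a list is read from them. In a list of 23 partners and regulators of G1, 21 were tested, of which 6 were called higher and 7 lower at day 19 and 3 higher and 4 lower at day 40. GSK3B, a kinase that marks D cyclins for degradation, averaged 68.6 ± 4.18 CPM at day 19 and 72.1 ± 4.83 CPM at day 40, against 95.8 ± 7.20 CPM in culture (log2 fold changes -0.48 and -0.41, adjusted p = 2.42e-04 and 9.79e-04). CCNA2, the S-phase cyclin, averaged 156.9 ± 0.545 and 156.3 ± 2.51 CPM on these days, against 187.5 ± 3.71 CPM in culture (log2 fold changes -0.26 on both days, adjusted p = 0.00153 and 0.00172). CABLES1 was higher on both days but at a low level (1.06 ± 0.496 and 1.34 ± 0.435 CPM, against 0.285 ± 0.0859 CPM in culture). Chosen after the values were seen, SKP2, the F-box protein that targets p27 for degradation, was higher at day 19 (98.5 ± 11.5 CPM, against 73.7 ± 8.84 CPM in culture; log2 fold change 0.42, adjusted p = 0.00323) and was not called at day 40 (adjusted p = 0.142).

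All 20 genes on the list of the RB family and E2F pathway were tested, and 9 were called higher and 5 lower at day 19, and 9 higher and 4 lower at day 40 (median log2 fold changes 0.11 and 0.13). E2F7 and E2F8, the atypical repressors of E2F targets, were higher, with log2 fold changes of 1.06 and 0.92 at day 19 and 0.68 and 0.86 at day 40. E2F8 averaged 96.4 ± 1.02 CPM at day 19 and 91.9 ± 8.15 CPM at day 40, against 50.8 ± 5.82 CPM in culture. E2F5, which works with the RB relatives p107 and p130, was lower (log2 fold changes -0.996 and -0.58), as was TFDP1, a common partner of E2F proteins (-0.49 and -0.44). TFDP2, another such partner that was picked after the values were seen, was higher (0.94 and 0.38). Chosen after the values were seen, the activators E2F1 and E2F2 were higher, with log2 fold changes of 0.62 and 0.70 at day 19 and 0.34 and 0.33 at day 40. All these changes had an adjusted p under 0.05.

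Of the 26 genes of the list of E2F output, which encode replication and nucleotide synthesis factors, 7 were called higher, 7 lower and 12 neither way at day 19, and 4 higher, 6 lower and 16 neither way at day 40 (median log2 fold changes 0.04 and -0.02). MCM7 and UNG were higher (log2 fold changes 0.39 and 0.39 at day 19), and SLBP was lower (-0.30). Of 10 proliferation markers 6 were called lower and none higher on each day, with medians of -0.35 and -0.30. The 4 with the smallest p for femur against culture were HMMR, with log2 fold changes of -1.25 and -1.11, CDK1 with -0.68 and -0.46, AURKA with -0.62 and -0.51, and CCNB1 with -0.41 and -0.37. Chosen after the values were seen, MKI67 had log2 fold changes above 0, of 0.23 and 0.26, and was called on neither day (adjusted p = 0.179 and 0.139).

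**Figure D5:**
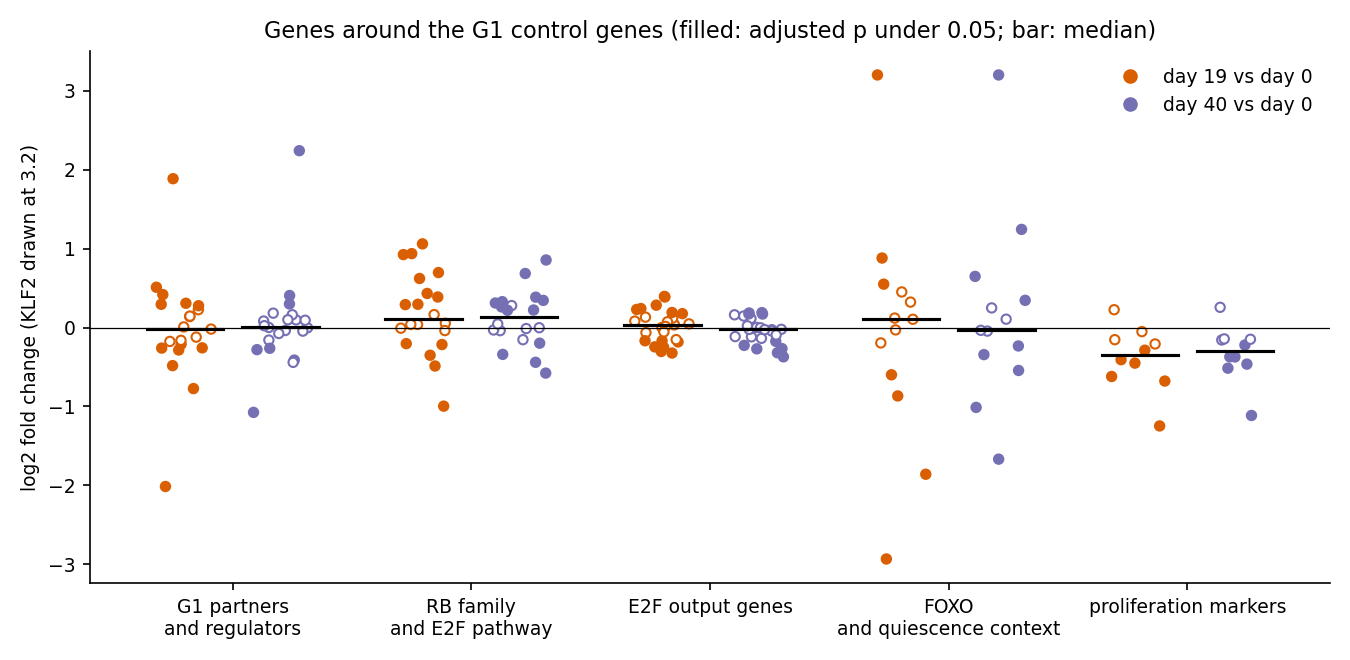
Log2 fold changes against culture of the tested genes in 5 lists, with day 19 and day 40 side by side. Filled points have an adjusted p under 0.05, black bars are list medians, and KLF2 is drawn at the edge of the axis because its values (7.61 and 7.63) lie beyond it. The E2F output list is centred near 0, and the proliferation markers lie mostly below it.

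FOXO transcription factors are known activators of CDKN1B. On the list of FOXO and quiescence context, 13 of 14 genes were tested, of which 3 were higher and 4 lower at day 19 and 4 higher and 5 lower at day 40. FOXO1 was lower on both days, at 94.1 ± 2.39 CPM at day 19 and 135 ± 9.67 CPM at day 40, against 171 ± 13.5 CPM in culture (log2 fold changes -0.87 and -0.34, adjusted p = 1.48e-06 and 0.00247). SESN1 was lower as well (-1.86 and -1.01), BCL6 fell by 2.93 and 1.67 on the log2 scale, and KLF2, at 0.260 ± 0.169 CPM in culture, was higher (7.61 and 7.63). Whether any of these bears on CDKN1B was not tested.

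Over the 9 libraries, the genes outside the list whose log2 CPM followed CDKN1B most closely were CHST12, RUBCNL and OSM, with Pearson correlations of 0.987, 0.986 and 0.986. For CDKN2C these were VPREB3, GAPDH and TPD52L2, with 0.9865, 0.9863 and 0.9841. Such values describe a pattern that many genes share, since 255 of the 15163 genes followed CDKN1B and 136 followed CDKN2C at 0.95 or above, and the libraries fall into culture and femur.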

How the data were processed

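The deposited files hold counts, whole-number raw counts of reads per Ensembl gene, 1 file per library. Per the submitters' processing notes, FastQC 0.11.5, STAR 2.5.2a, featureCounts 1.4.6 and DESeq2 1.40.1 were used with hg38. The sources used here do not give the annotation, the strand setting or how multi-mapping and mouse reads were treated. GENCODE 29 named 57980 of 58243 identifiers and gave positions and merged exon lengths.

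Genes were filtered with filterByExpr (15163 kept), scaled by TMM and tested with the quasi-likelihood F-test of edgeR 4.0.16 in R 4.3.3, two-sided, with a coefficient per group over 9 libraries. P-values were adjusted over all genes by Benjamini-Hochberg, and every adjusted p is from this test unless another is named. SE is the log2 fold change divided by the root of F. The test was checked on simulated counts. Far fewer genes were changed there than were called against culture here, so that check does not cover changes this broad. Alternatives were other scalings, no filter, DESeq2 1.42.0, limma voom 3.58.1, groups compared alone, a period block and leaving out libraries. The genes and lists were chosen with earlier results of these data known. Beside the members, the text names up to 4 called genes per list with the smallest p for femur (mean of day 19 and day 40) against culture, of which 1 is not reported here. Replicate numbers follow accession order, and the labels name no animals or cultures, so p-values cover only the variation among these libraries, some of which may be technical. No replicates were alike within sampling noise (chi-square per degree of freedom at least 5.57). The processed pseudogenes CDK4P1, CCND2P1 and CCND3P2 had 0 counts and CCND3P1 had 1.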

Additional observations from a re-analysis of the deposited data

Results flagged for a closer look

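The log2 fold change of CCND3 for day 40 against day 19 was -0.33 (SE 0.08, edgeR adjusted p = 0.0326), so the difference from culture was not the same on the femur days. Every day 40 library was below every day 19 library, which also fixes the direction within the 3 sampling periods. Leaving out any day 19 library, day 40 replicate 1 or day 40 replicate 2 raised the adjusted p above the threshold, and the range over 17 alternatives was 0.00159 to 0.707. No other tested member was called between the femur days.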

How the results depend on the processing

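Across 17 alternatives, CDKN1B and CDKN2C kept their direction and call against culture on both days, with log2 fold changes of 1.121 to 1.317 and 0.73 to 0.92 for CDKN1B and of -0.54 to -0.34 and -0.67 to -0.48 for CDKN2C. No called member reversed. Of 357 single values 332 kept their side of the threshold, 14 gained a call and 11 lost one. Members called at day 19 against day 0 numbered 2, or 4 without a low-count filter, which added CDK4 and CCND2, and 2 to 3 when 1 library was left out. At day 40 against day 0 they numbered 4, 2 without day 40 libraries 1 and 2 (a choice made after seeing the data, which leaves 1 library assumed to vary like the other groups), and 3 to 5 when 1 library was left out. At day 40 against day 19 the 1 called member became 2 with total library size scaling, DESeq2, limma voom or the replicate block, 3 without a filter or with only the groups compared, 0 without day 40 libraries 1 and 2, and 0 to 3 when 1 library was left out. Genes called numbered 8007, 7065 and 710 in the 3 comparisons, and 6804 to 8127, 5940 to 6778 and 280 to 1193 when 1 library was left out. The last was 1324 without a filter, 1100 with only the groups compared and 99 without day 40 libraries 1 and 2, where day 40 against day 0 had 4065. The causes were not tested. The labels give no replicate numbers, and sampling periods were not treated as pairs because 6 of 9 same-period correlations of deviations from group means, not all, passed 0.1 (range -0.05 to 0.305). In 14 of 18 cases a library was closest to its own period, a hint of shared variation from the data and not from the design. Depth limits CCND2, CDKN1C and CDKN2A.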
